A study of Homo sapiens with 8 samples.

Results

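The genes described are the type I interferon gene IFNB1, the type III (lambda) interferon genes IFNL1, IFNL2 and IFNL3, and IFNAR1, which encodes 1 chain of the receptor for type I interferon. They were taken by gene symbol from the deposited expression table, where each has exactly 1 row, and they are 5 of its 14944 loci. Of those loci 5182 carry no symbol, so a gene without a row under its name may still be present. The libraries are total RNA, depleted of ribosomal RNA and sequenced as 75 bp paired ends, from MCF10A, a human breast epithelial line that is immortalised but does not form tumours. There were 4 groups of 2 libraries: solvent alone (DMSO), 250 nM of the drug alone (AZD6738), 20 Gy of radiation in solvent (IR), and drug with radiation (AZD6738+IR). AZD6738 is an inhibitor of ATR, the kinase that cells use to slow the cycle and protect replication when DNA is damaged. Inhibitor or solvent was present from 2 hours ahead of irradiation and for 3 days. All groups are the same single cell line, and the labels name no genetic change. According to the series title, the question was how ATR inhibition alters the interferon response to ionizing radiation. No label says that paired libraries are separate cultures. A p-value here rests on the spread between the 2 libraries of a group, pooled over the 4 groups, and that spread may be technical.

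Interferon genes are close to silent in resting epithelial cells. When sensors of cytosolic RNA or DNA are engaged, interferon regulatory factors and NF-kB are activated and bind the short promoters of these genes. The secreted proteins then act on the same and neighbouring cells. IFNB1 protein signals through IFNAR1 and IFNAR2, which nearly all cells carry, while lambda interferons signal through IFNLR1 and IL10RB, mainly on epithelia. Both receptors act through JAK kinases and a transcription factor complex that holds IRF9 to switch on interferon-stimulated genes, among them IRF7, a factor that acts back on the interferon promoters.

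IFNB1 lies on chromosome 9, from 21077104 to 21077942 on the minus strand (GRCh38), and is protein-coding like the other 4. The lambda genes share a stretch of chromosome 19. IFNL3 runs from 39243455 to 39245250 on the minus strand, IFNL2 from 39268396 to 39270188 on the plus strand, and IFNL1 from 39296407 to 39298673 on the plus strand. The gap between IFNL3 and IFNL2 is 23.1 kb and that between IFNL2 and IFNL1 is 26.2 kb. IFNAR1 lies on chromosome 21, from 33324395 to 33359864 on the plus strand, 58.7 kb from IFNAR2 and 43.0 kb from IFNGR2.

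The 250 bases before the RefSeq start (GRCh38.p14) of 3 of the ligand genes are shown because these promoters are where the factors named above bind. Each is written 5′ to 3′ along the strand of its gene. Capitals mark matches, on either strand, to AANNGAAA, the core of the binding site of interferon regulatory factors, and to GGAAATTC, the inner letters of the kappaB site known in the IFNB1 enhancer. The shorter kappaB form was chosen after the windows had been seen.
IFNB1, chr9:21077943-21078192, minus strand: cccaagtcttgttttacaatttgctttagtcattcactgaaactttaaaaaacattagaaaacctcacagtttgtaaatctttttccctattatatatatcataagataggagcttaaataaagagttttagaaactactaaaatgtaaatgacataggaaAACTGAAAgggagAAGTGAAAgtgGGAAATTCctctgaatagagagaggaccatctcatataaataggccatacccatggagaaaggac
IFNL1, chr19:39296157-39296406, plus strand: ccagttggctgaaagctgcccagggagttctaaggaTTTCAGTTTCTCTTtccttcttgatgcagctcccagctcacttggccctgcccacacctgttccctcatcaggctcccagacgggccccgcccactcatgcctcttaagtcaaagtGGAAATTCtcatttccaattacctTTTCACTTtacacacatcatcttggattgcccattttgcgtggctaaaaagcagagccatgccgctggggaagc
IFNL3, chr19:39245251-39245500, minus strand: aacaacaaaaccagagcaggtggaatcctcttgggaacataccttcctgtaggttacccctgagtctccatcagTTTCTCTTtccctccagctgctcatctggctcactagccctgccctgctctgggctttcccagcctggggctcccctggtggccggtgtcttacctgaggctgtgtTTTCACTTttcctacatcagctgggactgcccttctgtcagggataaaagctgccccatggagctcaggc

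The IFNB1 window held 2 matches to AANNGAAA, from -89 to -82 and from -76 to -69, where -1 is the base next to the start. Its single GGAAATTC lies beside them, from -65 to -58. As background, these bases are part of the known IFNB1 enhancer, in which interferon regulatory factors, NF-kB and ATF2 with c-Jun bind side by side. The IFNL1 window held 3 matches to AANNGAAA, all on the opposite strand, of which those from -214 to -207 and from -208 to -201 overlap, and the last runs from -74 to -67. It also held 1 GGAAATTC, from -98 to -91. IFNL3 had 2 matches to AANNGAAA, also on the opposite strand, from -176 to -169 and from -70 to -63. The window of IFNL2 differs from that of IFNL3 at 1 of 250 bases, C31T, counted from the 5′ end of the window with the IFNL2 base first, so its matches are the same. Neither of these windows held GGAAATTC, and the IFNAR1 window held no match to either motif. No kappaB match overlaps a match to AANNGAAA. Of 35116 windows of this length before RefSeq starts, 20.3% held at least 1 AANNGAAA, 4.54% held at least 2, and 1.11% held GGAAATTC. A match describes the letters of a window and does not show that a factor bound there.

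**Figure D1:**
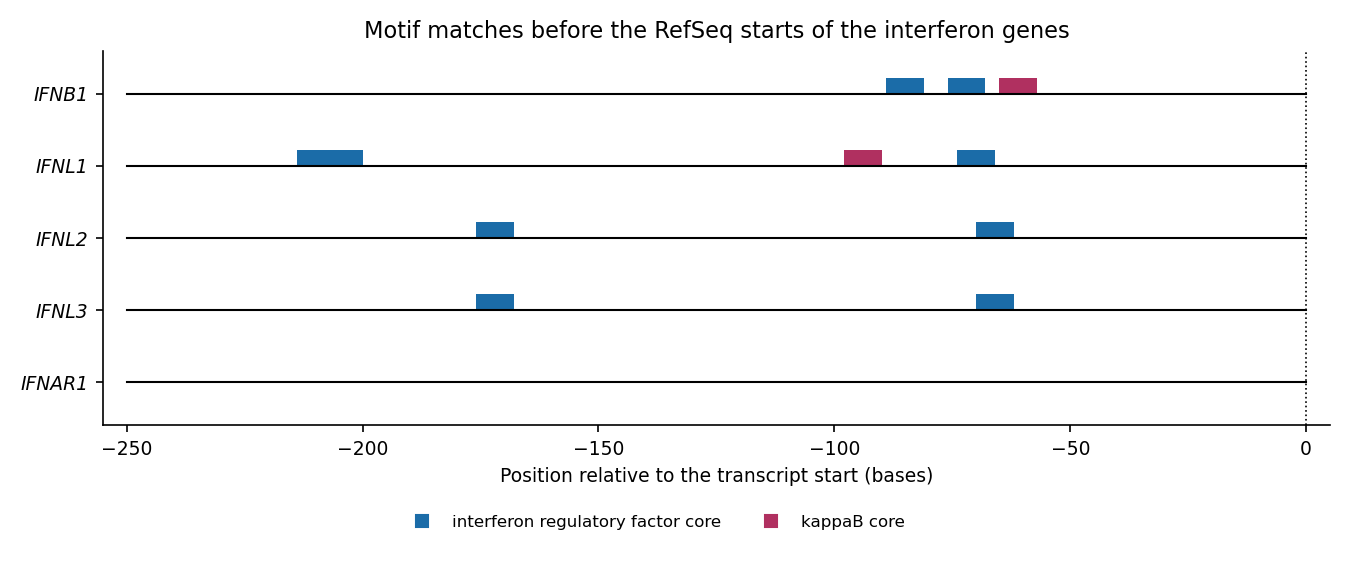
Motif matches in the 250 bases before the RefSeq start of each interferon gene. The x axis is the position in bases relative to the start, and blocks are matches on either strand to AANNGAAA (interferon regulatory factor core) or GGAAATTC (kappaB core). The 4 ligand genes hold 2 or 3 of the former each, IFNB1 and IFNL1 hold 1 of the latter, and IFNAR1 holds neither.

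Levels are in FPKM, which counts fragments relative to transcript length and library total, so that genes of different length and libraries of different size can be set side by side. Very abundant RNAs still lower the values of other genes, and their share of the total differed between groups, as given below. The table does not name its unit, and FPKM is an assumption set out under the processing. The number of reads behind a value could not be worked out from the table, so no counting interval is given. Differences are on the scale of log2(FPKM + 1), which understates changes of genes with low levels, and were tested with limma in 1 fit of all 8 libraries. A gene was called where its p, adjusted by Benjamini-Hochberg across 12809 loci, was under 0.05. Group values are means ± SD with n = 2, and the letters A and B of the deposited columns name the libraries. The comparisons share libraries, so a gene's values in them are not independent.

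The summed FPKM of a library ran from 864306 to 969381. The 4 most abundant loci took 53.3% to 54.1% of it without irradiation, 56.5% and 56.7% in IR, 57.1% in AZD6738+IR A and 61.4% in AZD6738+IR B, so that library B stood apart from library A in the group where the ligands were high. A list of 11 markers covered basal breast epithelium and, with CDH1 and EPCAM, epithelium in general, and 8 of them have a row. Their summed level was 1891 to 1907 FPKM in DMSO, 2083 to 2115 in AZD6738, 2646 to 2663 in IR, and 4451 and 4166 in AZD6738+IR A and B. KRT17, a basal keratin, made up most of that sum, at 1151 ± 20 FPKM in DMSO and 3236 ± 175 in AZD6738+IR. The 8 did not move together: in AZD6738+IR against DMSO 4 were called higher (KRT14, KRT17, CDH3 and CDH1) and 4 lower (TP63, EGFR, ITGA6 and EPCAM). Of all loci, 27.1% were called higher and 45.6% lower in that comparison. Of 15 markers of blood and interferon-producing cells, 3 (CD14, CSF1R and CD68) have a row, with sums of 20.9 to 24.5 FPKM without irradiation, 25.2 and 26.3 in IR, and 27.2 and 29.9 in AZD6738+IR. Within this sum CD14 was lower in IR (13.1 ± 0.15 FPKM) than in DMSO (15.7 ± 0.21, limma adjusted p = 0.00229). CSF1R rose from 0.737 ± 0.015 FPKM in DMSO to 4.71 ± 0.17 in IR and was at 2.94 ± 0.40 with combined treatment (limma adjusted p = 2.96e-05 and 3.56e-05 against DMSO). CD68 was at 7.83 ± 0.15, 7.99 ± 0.71 and 11.4 ± 1.1 FPKM in the same groups. The defining markers PTPRC, CLEC4C and LILRA4 have no row under their names, which does not show that they were absent. These sums and the share of the most abundant loci moved with the groups, and their part in the results was not tested, except that each result was also computed without each library. In bulk RNA, more transcript per cell and more cells with the transcript cannot be told apart.

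Transcripts of the 4 interferons were near 0 in every library except the 2 in which ATR inhibition and radiation were combined, where they reached 9.80 to 77.6 FPKM. In the comparison of AZD6738+IR with IR, all 4 ligand genes were higher, by 211-fold to 399-fold in group means. IFNAR1 went the other way in that comparison, to 0.787 times its level in IR. These genes were measured after 3 days of treatment, the only time among these libraries.

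IFNB1, the beta interferon that many cell types make first, was listed at 0.0209 and 0 FPKM in DMSO A and B, at 0.0204 and 0 in AZD6738, at 0.0196 and 0.0776 in IR, and at 9.80 and 10.7 in AZD6738+IR. Both libraries with combined treatment stood far above the other 6, which overlapped among the groups. The mean was 10.2 ± 0.633 FPKM with combined treatment and 0.0486 ± 0.041 in IR, a ratio of 211, and single libraries gave ratios of 126 to 547. On the log2(FPKM + 1) scale the difference was 3.42, with a 95% interval of 3.27 to 3.58 and limma adjusted p = 1.61e-06.

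IFNL1, a lambda interferon also called IL-29, had a listed level of 0 in DMSO A and B and in AZD6738 A and B. It was at 0.116 and 0.253 FPKM in IR A and B, and at 77.6 and 69.8 in AZD6738+IR A and B. No IR library overlapped with the libraries without irradiation, and no library with combined treatment overlapped with any other. Combined treatment gave 73.7 ± 5.5 FPKM against 0.185 ± 0.097 in IR, a ratio of 399 with library ratios of 275 to 667. The difference on the log2(FPKM + 1) scale was 5.98, with a 95% interval of 5.79 to 6.17 and limma adjusted p = 6.67e-07. It ranked 1 by log2 difference among the 8666 named loci tested in this comparison and 2 among all 12809.

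IFNL2 and IFNL3, which encode nearly the same lambda interferon protein and are also called IL-28A and IL-28B, followed the same order of groups. IFNL2 was listed at 0 in the 4 libraries without irradiation, at 0.0698 and 0.203 FPKM in IR, and at 36.3 and 33.2 in AZD6738+IR. IFNL3 was likewise at 0 in those 4 libraries, at 0.113 and 0.147 FPKM in IR, and at 40.4 and 41.4 in AZD6738+IR. Neither gene had any overlap between the irradiated groups or between them and the libraries without irradiation. AZD6738+IR exceeded IR 254-fold for IFNL2, a log2(FPKM + 1) difference of 4.98 with a 95% interval of 4.80 to 5.16 and limma adjusted p = 9.61e-07. For IFNL3 the ratio was 315, and the difference was 5.21 with a 95% interval of 5.11 to 5.32 and limma adjusted p = 4.43e-07. The deposited transcripts of this pair are 95.6% identical over 656 aligned bases, and 12.5% of the 75-base windows of IFNL2 and 14.3% of those of IFNL3 occur unchanged in the other. The sources used here do not say how reads common to both were divided, so the split between them is uncertain, and their sum was 76.6 and 74.7 FPKM in AZD6738+IR A and B. IFNL1 is 78.8% identical to IFNL2 and 79.8% to IFNL3, with 0 shared 75-base windows.

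**Figure D2:**
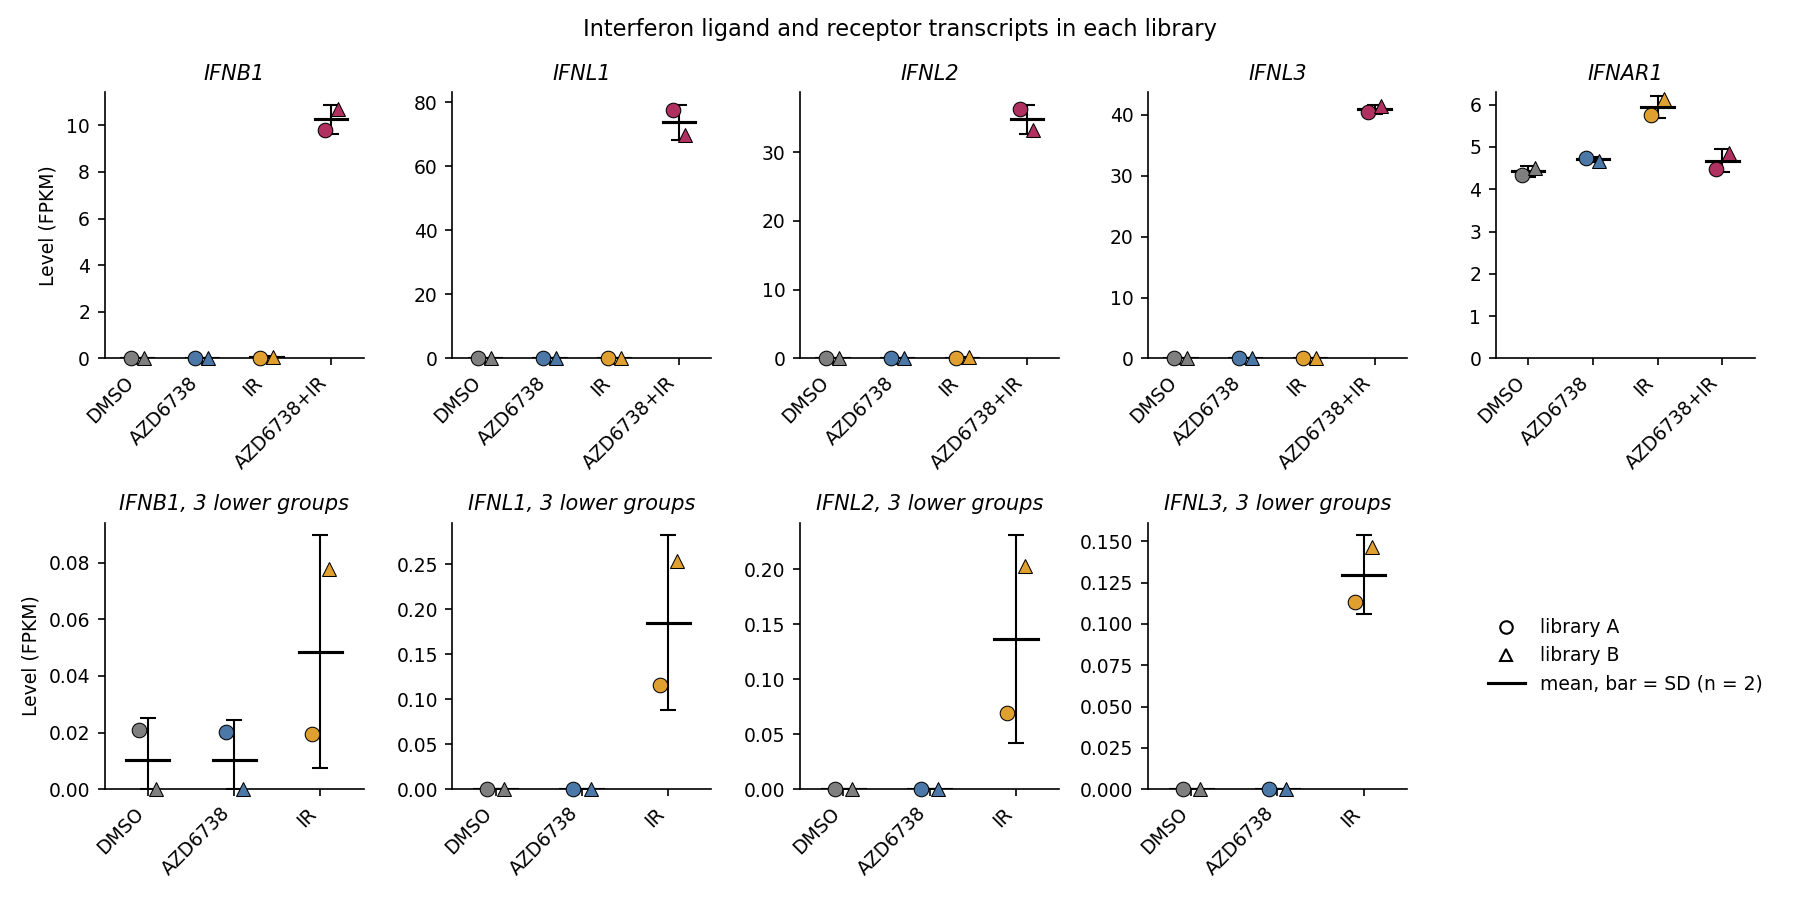
FPKM of each interferon gene in every library, by group. Circles are library A, triangles library B, lines the mean and bars the SD of 2 libraries, and the lower row repeats the 3 lower groups on their own linear scale, where SD bars are cut at 0. The 4 ligands stand between 9.80 and 77.6 FPKM with AZD6738+IR and at or under 0.253 FPKM elsewhere, while IFNAR1 is highest in IR.

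The 4 ligands and IFNAR1 were thus all called between AZD6738+IR and IR, where 51.1% of all loci tested were called, 19.6% as higher and 31.5% as lower. Against DMSO, AZD6738+IR was higher for the 4 ligands by 3.48 (IFNB1), 6.22 (IFNL1), 5.16 (IFNL2) and 5.39 (IFNL3) on the log2(FPKM + 1) scale, with limma adjusted p from 1.56e-07 to 6.37e-07, where 72.7% of loci were called, 27.1% as higher and 45.6% as lower. Against AZD6738 alone the differences were the same to 2 decimals, with limma adjusted p from 1.56e-07 to 7.24e-07, where 72.4% of loci were called, 27.1% as higher and 45.2% as lower. No fold is given against groups in which a library was listed at 0. All 4 ligands passed the filter of a mean of 1 FPKM only through AZD6738+IR. Their means over the other 6 libraries were 0.0231 (IFNB1), 0.0616 (IFNL1), 0.0455 (IFNL2) and 0.0433 (IFNL3). The whole deposited table has such a floor, since every locus in it reaches 1 FPKM in at least 1 library. A ligand that passed through a single group had to differ there. Neither the count of 4 nor a ligand's call in a comparison with AZD6738+IR therefore carries weight of its own.

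For ATR inhibition without radiation no difference was detected. The IFNL genes were listed at 0 in both groups, and IFNB1 was at 0.0102 ± 0.0144 FPKM with AZD6738 and 0.0105 ± 0.0148 with DMSO. The 95% interval of the IFNB1 difference ran from -0.15 to 0.15 on the log2(FPKM + 1) scale. None of the 5 genes was called, where 0.148% of all loci were called, 0.0937% as higher and 0.0546% as lower. For IFNAR1 the difference was 0.073, with a 95% interval of -0.052 to 0.20 and limma adjusted p = 0.577.

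Radiation without the inhibitor gave low ligand levels. IFNL1 and IFNL3 were called higher in IR than in DMSO, with differences of 0.24 and 0.18 on the log2(FPKM + 1) scale and limma adjusted p = 0.0343 and 0.0139. IFNL2 had a difference of 0.18 with limma adjusted p = 0.0749, and IFNB1 one of 0.053 with limma adjusted p = 0.492. Among all loci, 61.8% were called in this comparison, 23.7% as higher and 38% as lower. Even the higher IR value, 0.253 FPKM for IFNL1 in library B, stood above 2.20% of the 14645 loci left after duplicate entries were dropped, tested or not.

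The small IR calls depend on single libraries. For IFNL1, adjusted p rose to 0.151 without IR B, to 0.103 without either DMSO library and to 0.057 without either AZD6738 library. For IFNL3 it rose to 0.0687 without IR B. For IFNL2 it came to 0.0322 without IR A, the library with its lower value. The groups at 0 have no spread of their own, and with only the IR and DMSO libraries in the fit the IFNL1 difference had limma adjusted p = 0.0617.

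The interaction asks whether radiation acted differently with and without the inhibitor. It was 3.42 for IFNB1 (SE 0.0881), 5.98 for IFNL1 (SE 0.108), 4.98 for IFNL2 (SE 0.104) and 5.21 for IFNL3 (SE 0.0609), all on the log2(FPKM + 1) scale and with limma adjusted p from 3.60e-06 to 1.31e-05. IFNL1 ranked 1 among named loci by this difference and 3 among all loci. Of all loci, 35.5% were called for the interaction, 13.1% as higher and 22.4% as lower.

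**Figure D3:**
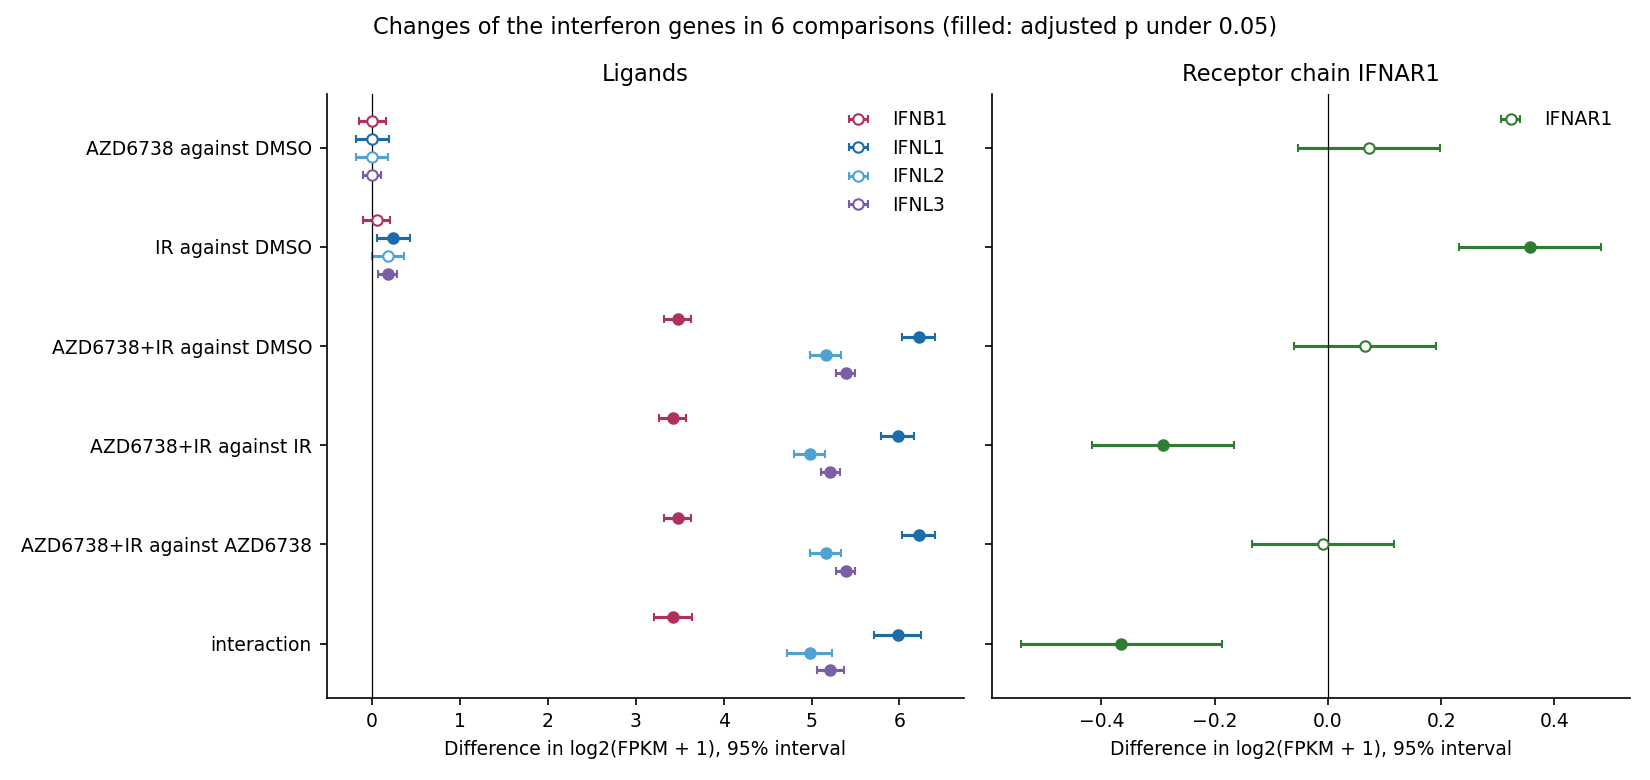
Differences of the 5 genes in 6 comparisons, on the log2(FPKM + 1) scale with 95% intervals from the limma fit. Filled points have an adjusted p under 0.05, and the x axis of the IFNAR1 panel is expanded. Ligand differences involving AZD6738+IR lie between 3.42 and 6.22, and those of IFNAR1 between -0.36 and 0.36.

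With combined treatment the ligands kept the order IFNL1, IFNL3, IFNL2, IFNB1 in both libraries, and no neighbouring pair in this order overlapped between libraries, though 2 libraries give no test of the order that can pass 0.05. The 4 summed to 164.0 FPKM in library A and 155.1 in library B. IFNL1 made up 46.1% ± 1.63 (SD, n = 2) of the sum, IFNL3 25.7% ± 1.46, IFNL2 21.8% ± 0.48 and IFNB1 6.43% ± 0.65, so the lambda transcripts together were 93.6% ± 0.65. IFNL1 exceeded IFNB1 7.92-fold in library A and 6.52-fold in library B. IFNL3 exceeded IFNL2 only 1.11-fold in library A and 1.25-fold in library B. The split of reads common to IFNL2 and IFNL3 is uncertain, so their order and their separate shares are uncertain too. IFNL1 and IFNL2 were higher in library A, and IFNB1 and IFNL3 in library B. In IR, IFNL1 was above IFNL3 in both libraries, IFNL3 was above IFNL2 in library A and below it in library B, and IFNB1 was lowest in both. The IR values of these neighbours in the order overlapped between libraries.

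Set against the 14645 loci of the same library, tested or not, IFNL1 was above 95.7% of loci in AZD6738+IR A and 95.5% in B, and IFNL3 above 91.9% and 92.4%. IFNL2 was above 91.1% and 90.4%, and IFNB1 above 70.6% and 73.3%. The median locus stood at 4.42 and 4.29 FPKM in these libraries. IFNAR1 was above 50.3% and 53.6% of loci there, 57.0% and 58.8% in IR, and 48.5% and 49.6% in DMSO.

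The bounds set by the ligands, at most 0.253 FPKM in each of the 6 other libraries and at least 9.80 in both with combined treatment, were met by 8 loci of the table, all of them named. Beside the 4 ligands these were HERC5, MX2, RTP4 and XAF1, named here after their values were seen. All 4 are known to be interferon-induced: HERC5 is the ligase that attaches ISG15, MX2 is a dynamin-like antiviral protein, RTP4 is a chaperone of receptor transport, and XAF1 is a partner of the apoptosis inhibitor XIAP. HERC5 was at 22.2 and 24.3 FPKM with combined treatment, MX2 at 39.8 and 37.0, RTP4 at 21.9 and 21.0, and XAF1 at 16.6 and 16.3.

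**Figure D4:**
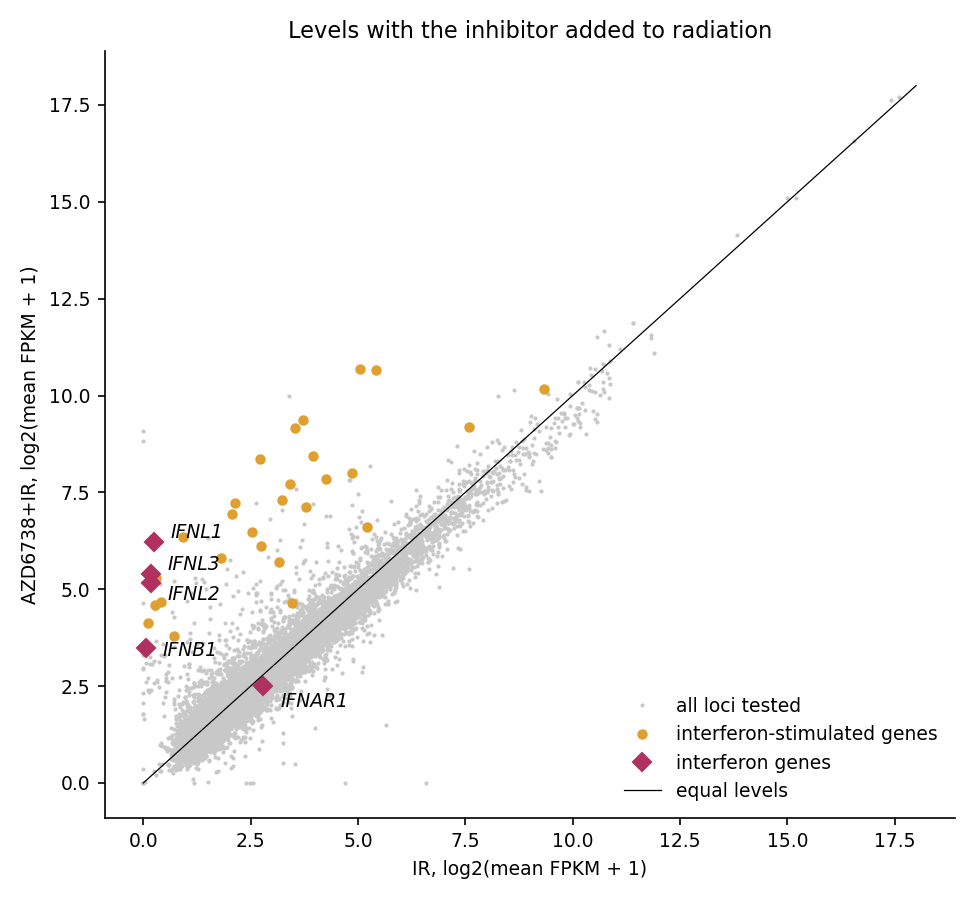
Mean level with AZD6738+IR against mean level with IR for each of the 12809 loci tested, both axes as log2(mean FPKM + 1), with a line of equal levels. Diamonds are the 5 interferon genes and larger circles 27 interferon-stimulated genes. The ligands sit at the left edge and far above the line, and IFNAR1 lies just below it.

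The named loci whose pattern over the 8 libraries was most like that of IFNB1, by Pearson correlation of log2(FPKM + 1), were IDO1 (r = 0.9998), which breaks down tryptophan, then IFNL3, XAF1, the pseudogene GBP1P1 and IFNL2. IDO1 was at 0 in the 4 libraries without irradiation, at 0 and 0.0957 FPKM in IR, and at 4.94 and 5.32 with combined treatment. For IFNL1 the closest was IFNL2, followed by RASGRP3, an activator of Ras-family proteins, then XAF1, GBP1P1 and IFNL3. RASGRP3 went from 0.132 and 0.187 FPKM in IR to 7.50 and 7.19 with combined treatment. These correlations rest on 2 libraries being far above the other 6, and 69 named loci had r over 0.99 with IFNB1 and 77 with IFNL1.

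IFNAR1, whose protein pairs with IFNAR2 to bind all type I interferons, differed from the ligands in being present in every library. It was at 4.34 and 4.51 FPKM in DMSO A and B, 4.75 and 4.66 in AZD6738, 5.76 and 6.13 in IR, and 4.49 and 4.87 in AZD6738+IR. Both IR libraries were above all others, and the remaining groups lay within 4.34 to 4.87 FPKM. IFNAR1 rose 1.34-fold from DMSO (4.42 ± 0.123 FPKM) to IR (5.94 ± 0.26 FPKM), a difference of 0.36 on the log2(FPKM + 1) scale with a 95% interval of 0.23 to 0.48 and limma adjusted p = 0.00159. With combined treatment it was at 4.68 ± 0.268 FPKM, 0.787 times the IR level, a difference of -0.29 with a 95% interval of -0.42 to -0.17 and limma adjusted p = 0.00488. Against DMSO the combined treatment differed by 0.065, with a 95% interval of -0.060 to 0.19 and limma adjusted p = 0.289, and against AZD6738 by -0.0081, with a 95% interval of -0.13 to 0.12 and limma adjusted p = 0.897. The interaction was -0.36 (SE 0.0719), with limma adjusted p = 0.0121.

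The pattern of IFNAR1 was shared by few named loci. The 5 most like it were APH1B (r = 0.992), a subunit of gamma-secretase, CMTM6 (0.983), which stabilises PD-L1 at the cell surface, CMAS (0.983), an enzyme of sialic acid activation, PBXIP1 (0.980), which binds PBX proteins, and EOGT (0.973), a glycosyltransferase. APH1B was at 2.11 and 2.24 FPKM in DMSO, 2.40 and 2.35 in AZD6738, 3.07 and 3.10 in IR, and 2.27 and 2.44 in AZD6738+IR. APH1B was the only named locus with r over 0.99 to IFNAR1, and loci without a symbol were not compared.

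Of 11 listed genes for receptor chains and their kinases and transcription factors, the list that holds the partners of IFNAR1, 6 have a row and all 6 were tested. IFNLR1, JAK2, TYK2, STAT2 and IRF9 have no row under these names and were not analysed here. Called higher and lower were 2 and 1 in IR against DMSO, 1 and 0 in AZD6738+IR against IR, and 3 and 1 in AZD6738+IR against DMSO, where 2 and 0 were called without AZD6738+IR B, a fit added after seeing the data. Of all loci, 23.7% were called higher and 38% lower in IR against DMSO, 19.6% and 31.5% in AZD6738+IR against IR, and 27.1% and 45.6% in AZD6738+IR against DMSO. Median differences were 0.20, -0.0093 and 0.15 on the log2(FPKM + 1) scale, beside -0.098, -0.068 and -0.16 over all loci. IFNAR2, the other chain for type I interferon, was at 1.93 ± 0.042 FPKM in DMSO, 1.93 ± 0.079 in AZD6738, 2.22 ± 0.13 in IR and 2.09 ± 0.14 in AZD6738+IR, with no call in any of these comparisons. IL10RB, the shared chain of the lambda receptor, fell from 14.2 ± 0.59 FPKM in DMSO to 12.5 ± 0.70 in IR and was at 12.8 ± 0.077 with combined treatment. Its limma adjusted p was 0.023 for IR against DMSO and 0.553 for AZD6738+IR against IR.

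The chains for interferon gamma were also on the list. IFNGR1 rose from 56.9 ± 4.8 FPKM in DMSO to 71.3 ± 1.3 in IR (limma adjusted p = 0.00542) and was at 66.3 ± 1.1 with combined treatment. IFNGR2 was at 23.1 ± 3.3 FPKM in DMSO, 27.9 ± 3.3 in AZD6738, 21.3 ± 7.7 in IR and 17.0 ± 3.6 in AZD6738+IR, with no call.

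JAK1, a kinase bound to both receptor types, rose from 25.3 ± 0.067 FPKM in DMSO to 30.5 ± 0.82 in IR and to 39.6 ± 0.92 with combined treatment, with limma adjusted p = 0.00185 and 0.000729 for the steps. STAT3 was at 18.6 ± 0.27 FPKM in DMSO, 25.1 ± 8.8 in AZD6738, 25.4 ± 0.55 in IR and 33.7 ± 1.8 in AZD6738+IR, and of the comparisons named here it was called only for AZD6738+IR against DMSO (limma adjusted p = 0.0133).

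Factors known to act on the interferon promoters formed a list of 15, of which 11 have a row and were tested. NFKB2, RELA, RELB and EP300 have none under these names. In IR against DMSO 3 were called higher and 5 lower, and in AZD6738+IR against IR 6 were higher and 0 lower. The shares over all loci were 23.7% higher and 38% lower in the former and 19.6% and 31.5% in the latter. The medians were -0.12 and 0.27 on the log2(FPKM + 1) scale, beside -0.098 and -0.068 over all loci. IRF7, the interferon-induced regulatory factor that amplifies type I and III interferon transcription, went from 0.865 ± 0.21 FPKM in DMSO to 3.49 ± 0.45 in IR and 39.6 ± 2.6 in AZD6738+IR. The step from IR was 3.18 on the log2(FPKM + 1) scale with limma adjusted p = 1.74e-05. IRF1, which binds the same core, rose from 4.45 ± 0.13 FPKM in DMSO to 7.60 ± 0.17 in IR and 33.2 ± 2.3 in AZD6738+IR.

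IRF3, which is present before infection and is activated by phosphorylation, was at 18.1 ± 0.71 FPKM in DMSO, 18.3 ± 0.071 in AZD6738, 18.9 ± 0.20 in IR and 22.2 ± 1.9 in AZD6738+IR, with limma adjusted p = 0.0303 for the last step. It is named here, after its values were seen, because it is the best-known activator of IFNB1. JUN, which binds the IFNB1 enhancer with ATF2, rose from 7.37 ± 0.57 FPKM in DMSO to 11.4 ± 0.14 in IR and 24.1 ± 0.94 with combined treatment. HMGA1, an architectural protein of that enhancer, fell from 131 ± 5.5 FPKM in DMSO to 43.7 ± 1.7 in IR and was at 36.7 ± 5.3 in AZD6738+IR, where the difference from IR had limma adjusted p = 0.0727.

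Of 14 genes that limit interferon production or signalling, 9 have a row and 8 were tested. In IR against DMSO 3 were called higher and 4 lower, and in AZD6738+IR against IR 6 were higher and 1 lower. Over all loci 23.7% were called higher and 38% lower in the former comparison, and 19.6% and 31.5% in the latter. The medians were -0.035 and 0.36 on the log2(FPKM + 1) scale, beside -0.098 and -0.068 over all loci. TRIM21, a ubiquitin ligase that is itself induced by interferon, was at 4.66 ± 2.06 FPKM in DMSO, 12.5 ± 0.50 in IR and 102 ± 2.2 in AZD6738+IR. TNFAIP3, the NF-kB inhibitor A20, rose from 3.46 ± 0.24 FPKM to 8.09 ± 0.51 and 20.5 ± 0.87 in the same groups. SOCS3, which blocks cytokine receptor signalling, fell from 1.91 ± 0.020 to 1.51 ± 0.084 FPKM with radiation and rose to 4.79 ± 0.26 with combined treatment. PTPN2, a phosphatase acting on JAK1, fell from 14.9 ± 0.29 FPKM in DMSO to 6.90 ± 0.0018 in IR and was at 6.62 ± 0.13 with combined treatment. SOCS1, the main inhibitor of JAK kinases in this pathway, averaged under 1 FPKM and was not tested, and it is named here after its values were seen. It was at 0.0707 ± 0.032 in DMSO, 0.191 ± 0.0074 in IR and 1.75 ± 0.092 in AZD6738+IR.

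**Figure D5:**
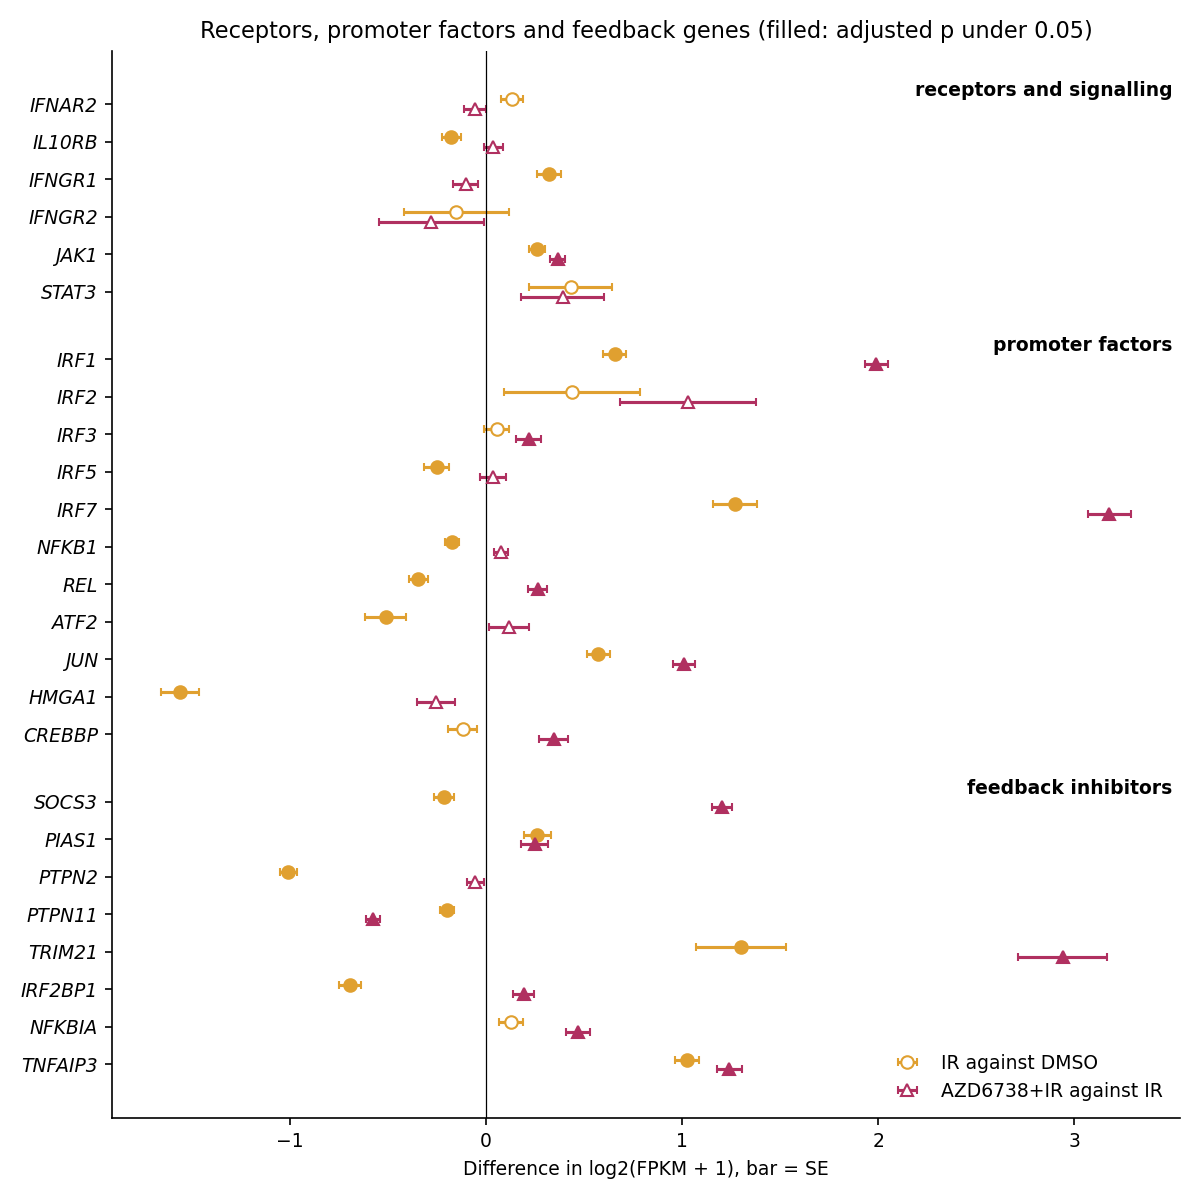
Differences on the log2(FPKM + 1) scale, with SE, for the tested receptors and signalling genes, promoter factors and feedback genes. Circles compare IR with DMSO and triangles AZD6738+IR with IR, and filled symbols have a limma adjusted p under 0.05. IRF7 (3.18) and TRIM21 (2.94) lie farthest to the right for AZD6738+IR against IR.

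Beside the ligands themselves, 27 of 40 listed interferon-stimulated genes have a row. In IR, where the ligands were at or under 0.253 FPKM, 25 of the 27 were called higher than in DMSO and 0 lower, against 23.7% and 38% of all loci, with a median difference of 1.15. In AZD6738+IR against IR 27 were higher, with a median of 4.06, beside 19.6% of all loci and a median of -0.068. For the interaction 27 were higher, with a median of 4.02, beside 13.1% and -0.063. With AZD6738 alone none was called, where 0.148% of all loci were called, and the median was 0.11, beside -0.0036 over all loci. Some of the 27, among them HERC5, MX2 and XAF1, were under 1 FPKM in every library outside AZD6738+IR. Such genes passed the filter only through that group and had to differ there, so their calls carry no weight of their own. ISG15, a ubiquitin-like modifier, was at 2.49 ± 0.70 FPKM in DMSO, 5.73 ± 0.14 in AZD6738, 32.2 ± 5.1 in IR and 1650 ± 65 in AZD6738+IR. IFIT1, which binds viral RNA, was at 0.625 ± 0.12, 1.20 ± 0.0048, 10.6 ± 1.0 and 570 ± 6.6 in the same groups. IFI6 and IFIT3 reached 1609 ± 116 and 655 ± 16.3 FPKM with combined treatment. These levels were far above those of the ligands in the same libraries.

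No other interferon ligand has a row under its name: the list held 18 names, the IFNA genes, IFNE, IFNK, IFNW1, IFNL4 and IFNG, and they were not analysed here. A missing name does not show that they were silent. Around IFNB1, of 9 genes on the short arm of chromosome 9 only ELAVL2, a neuronal RNA-binding protein, has a row, at 1.04 ± 0.15 FPKM in DMSO and 0.599 ± 0.55 in AZD6738+IR, and it was under the filter. It is named as the only listed neighbour with a row, after its values were seen. MTAP, the nearest listed gene beyond the IFNA cluster at 725 kb, has no row under its name.

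Of 16 listed neighbours of the lambda genes 9 were tested, and in AZD6738+IR against IR 2 were called higher and 4 lower, beside 19.6% and 31.5% of all loci. They spanned 0.505 to 237 FPKM in AZD6738+IR and none met the bounds of the ligands given above, which only 8 loci of the table met, the ligands included. NCCRP1, 1 of the neighbours, rose from 0.222 ± 0.020 FPKM in DMSO to 2.41 ± 0.29 in IR and was at 2.23 ± 0.10 with combined treatment. RPS16, a ribosomal protein gene, fell from 402 ± 30 FPKM in IR to 237 ± 34 with combined treatment. SARS2, the mitochondrial seryl-tRNA synthetase, and FBXO17, an F-box protein, were lower by 1.13 and 1.12 on the log2(FPKM + 1) scale in AZD6738+IR than in DMSO.

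Near IFNAR1, of 12 listed genes 9 were tested, and 1 was called higher and 3 lower in IR against DMSO, beside 23.7% and 38% of all loci. ITSN1, an endocytic scaffold protein, was the one that rose with radiation, from 3.47 ± 0.035 to 4.13 ± 0.017 FPKM, and it reached 4.64 ± 0.13 with combined treatment, where IFNAR1 was lower than in IR. CRYZL1, a quinone oxidoreductase-like protein, fell from 5.64 ± 0.23 FPKM in DMSO to 2.97 ± 0.15 in IR and was at 2.97 ± 0.11 with combined treatment. GART, an enzyme of purine synthesis, fell from 45.4 ± 0.23 FPKM in DMSO to 39.9 ± 0.90 in IR and 30.1 ± 1.2 with combined treatment. DONSON, a replication protein, was called lower only with combined treatment among these comparisons with DMSO, at 2.16 ± 0.19 against 2.96 ± 0.041 FPKM. In AZD6738+IR against DMSO 1 was higher and 4 lower, or 1 and 2 without AZD6738+IR B, beside 27.1% and 45.6% of all loci.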

How the data were processed

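MCF10A total RNA was sequenced in 8 libraries, which were grouped by the treatment in their labels. Per the submitters' processing notes, HISAT2 2.0.4, StringTie 1.3.4d and FastQC were used with hg38, but the sources used here do not state their roles or settings. The table the authors deposited is filtered and holds 1 value for each locus in each library. Its header names no unit, and the deposited values were taken as FPKM because StringTie writes FPKM and TPM and column totals differ. A filtered TPM table would look alike. Its values would be off by a constant factor in each library. The scaling alternatives bear on that only in part, since median-centring acts after log2(FPKM + 1) and does not undo such a factor at low values. The deposited p-value and adjusted p-value columns name no comparison, and neither was used. Low values were checked for whole-read steps at 631 loci whose transcript has 1 exon in GENCODE. Over the steps tried, at most 30.2% to 39.7% of the low values in a library, up to 8 steps, lay within 0.1 of a whole multiple, where evenly spread values would give 20%, so read numbers and depth were not recovered and the effect of depth on precision is unknown. Because FPKM depends on the library total, very abundant RNAs lower the values of other genes.

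Columns were matched to groups by name, where Control stands for DMSO, and they carry the letters A and B, which are not tied to the replicate numbers of the labels. There were 0 value columns of no sample. No replicate pair held identical values. Of symbols with several entries (217), only that with the highest mean stayed, so that 299 entries dropped out and 14645 loci were left. limma 3.58.1 in R 4.3.3 was fitted to log2(FPKM + 1) with a coefficient per group, all 8 libraries and an intensity trend. A mean of 1 FPKM or more was required, which gave 12809 loci, 4 residual and 1.79 prior degrees of freedom. The contrasts numbered 6. AZD6738 and IR were each set against DMSO, AZD6738+IR was set against every other group, and the interaction took the radiation difference with drug less that without. Tests were two-sided with Benjamini-Hochberg adjustment over all loci, and the script was tested on simulated data. The alternatives were a pseudocount of 0.1, a mean of at least 0.1 FPKM, no filter, median-centred and quantile-normalized libraries, no trend, only the groups compared, the column letter as a block, and each library left out. Sequence was compared and searched with Biopython 1.88.

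Named beside the 5 genes are the tested receptor and signalling genes of the list, up to 4 called members of each other list with the greatest change in AZD6738+IR against DMSO, and the 5 named loci most like IFNB1, IFNL1 and IFNAR1. HERC5, MX2, RTP4, XAF1, IRF3, SOCS1, ELAVL2, ZFP36, MED29 and the markers of other cells were named outside this rule, after their values were seen. The members and lists were chosen with earlier results of these data known. Protein sequences were not used here, and some listed genes are not reported here and were left out of the lists.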

Additional observations from a re-analysis of the deposited data

Results flagged for a closer look

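The effect of radiation on each of the 5 genes differed with and without the ATR inhibitor, as tested by the interaction in the limma fit. Of all loci, 35.5% were called for the interaction, 13.1% as higher and 22.4% as lower. The 4 ligands entered the test only through AZD6738+IR, so their calls carry no weight of their own. IFNB1 had an interaction of 3.42 on the log2(FPKM + 1) scale, with both AZD6738+IR libraries above both IR libraries. IFNL1 had one of 5.98, IFNL2 one of 4.98 and IFNL3 one of 5.21, with the same order of libraries. The interaction of IFNAR1 was -0.36, with both AZD6738+IR libraries below both IR libraries. With DMSO and AZD6738 at or near 0 for the ligands, their interaction holds the same 4 irradiated libraries as the comparison of AZD6738+IR with IR and adds little to it.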

How the results depend on the processing

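Of the 30 tested values, 6 comparisons for each of 5 genes, those of the ligands that involve AZD6738+IR kept their direction and their side of the threshold under every alternative run, and so did IFNAR1 in IR against DMSO, in AZD6738+IR against IR and in the interaction. The ligands passed the filter only through AZD6738+IR and had to differ there, so the stability of their calls carries no weight of its own. Loosening the filter does not lift this limit, because the deposited table has its own floor. Lambda groups listed at 0 add no spread to the fit of all 8 libraries. With only AZD6738+IR and IR in the fit, limma adjusted p was larger, at 0.000458 for IFNB1, 0.000297 for IFNL1 and 0.000376 for IFNL2. Leaving out 1 library at a time, the ligand differences of AZD6738+IR against IR ran from 3.37 to 3.48 for IFNB1, 5.89 to 6.06 for IFNL1, 4.89 to 5.06 for IFNL2 and 5.19 to 5.23 for IFNL3, and the IFNAR1 interaction had limma adjusted p from 0.0119 to 0.0471. The exceptions are small values. For IR against DMSO, IFNB1 was at -0.071 with quantile normalization, and IFNL3 at 0.12 with limma adjusted p = 0.0735. IFNL2 was called with a pseudocount of 0.1, at 1.18 with limma adjusted p = 0.0167, and with median-centred libraries, at 0.25 with limma adjusted p = 0.0235. IFNL1 was at 0.24 with only the groups compared and with the replicate block by column letter, where limma adjusted p was 0.0617 and 0.0559. Over libraries left out, IFNL1 ran from 0.16 to 0.33, IFNL2 from 0.097 to 0.27 and IFNL3 from 0.15 to 0.20. For AZD6738+IR against AZD6738, IFNAR1 was at 0.077 with median-centred libraries, at 0.056 with quantile normalization and from -0.056 to 0.040 over libraries left out. For AZD6738 against DMSO, IFNB1 ran from -0.015 to 0.015. Median-centring moves every locus of a library by the same amount, a listed 0 included, and its shifts are that amount. The cause of the other shifts was not tested. A lone library left in a group is assumed to vary like the other groups.

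The column letters do not pair libraries by any label. The deviations of A from B correlated from -0.0235 to 0.0776 between groups, and the block moved no other call of the 30. Across all loci the block gave 13 calls for AZD6738 against DMSO in place of 19, quantile normalization also gave 13, and leaving out 1 library gave 16 to 41. Depth was not recovered from the table, so how many reads stand behind the low IR values of the ligands could not be determined, and a listed 0 may be a failed estimate.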
